A study of Arabidopsis thaliana with 9 samples.

Results

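Cell wall genes were followed in whole Arabidopsis thaliana seedlings as 40 genes chosen by name from 22746 tested probe sets of the Affymetrix ATH1 array. A gene was included when its symbol in the platform's annotation began with a name of an expansin, xyloglucan endotransglucosylase/hydrolase (XTH), cellulose synthase, pectin, xylan or wall glycoprotein family, followed by a number or by a letter and a number. Each of the 40 genes had 1 probe set that named it alone. Genes were taken by name, but the members and the rule were chosen with earlier results of these data known. The members were 10 α-expansins (EXPA), 4 β-expansins (EXPB), 4 expansin-like genes (EXLA and EXLB), 9 XTH genes, 7 cellulose synthase-like genes (CSLA, CSLC and CSLD), 4 xylan genes (GUT and IRX), and the pectin genes GAUT15 and PME61. No probe set naming a single gene carried an XTR, CESA, FLA, AGP, EXT or COBL name, so cellulose synthases, extensins and arabinogalactan proteins were not analysed here.

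All seedlings were of ecotype Col-0, 10 days old, grown in liquid medium with 1% sucrose and 16 h of light a day, and all received 1% DMSO. The 3 groups of 3 arrays each were wild type with DMSO alone, wild type with 30 µM hyperphyllin, a small molecule, and the mutant amp1-13 with DMSO alone. AMP1 encodes a putative glutamate carboxypeptidase, and plants lacking it are known for extra leaves and an enlarged shoot meristem. The mutant is represented by 1 allele and the compound by 1 dose, and how many wells made up a sample is not stated. The titles call the 3 arrays of a group biological replicates, without saying what was grown separately, and p-values measure the spread between them.

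Plant cells enlarge when their wall yields to turgor. Expansins loosen the contacts between cellulose and matrix polysaccharides without cutting them, and XTH enzymes cut and rejoin xyloglucan, the main hemicellulose of the primary wall in Arabidopsis. CSLC proteins make the glucan backbone of xyloglucan, CSLA proteins make mannans, and GUT and IRX proteins act on the xylan of secondary walls. GAUT proteins make pectin, and pectin methylesterases (PME) remove methyl groups from it. New wall material is delivered and rearranged throughout growth, so the families act on the same wall at different steps.

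Signals are RMA values on the log2 scale, and differences are log2 differences with the standard error (SE) of the moderated fit, 3 arrays per group. A gene was called higher or lower at an adjusted p under 0.05 (limma, Benjamini-Hochberg over all 22746 probe sets). The median log2 signal of the arrays lay between 6.44 and 6.52. Wild-type DMSO replicate 2 lay furthest from its group, with a median absolute difference of 0.198 from the other 2 arrays, against 0.097 to 0.161 for the other 8. Of 9 listed leaf markers 3 (RCA, LHCB4.1 and ATPC1) were measured, and their mean log2 signal was 12 to 12.4 with DMSO, 12.7 to 13.0 with hyperphyllin and 12.9 to 13.0 in amp1-13. All 3 were higher in both comparisons against wild-type DMSO, beside 13.3% of all probe sets with hyperphyllin and 10.1% in amp1-13. The part of this marker shift in the differences below was not tested. None of 13 root and 9 xylem markers was measured, and the root hair list of 11 was measured only through EXPA7 and EXPA18. A change in the share of cells of a type and a change in RNA per cell cannot be told apart in whole seedlings.

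With hyperphyllin 11 of the 40 genes were higher and 5 were lower than with DMSO, and 24 did not pass the threshold. Over all probe sets 28.9% passed it, 13.3% higher and 15.6% lower. The expansin-like genes EXLA1, EXLA2 and EXLA3, the cellulose synthase-like genes CSLC04, CSLC6, CSLA03 and CSLD2, the genes XTH16, XTH18 and XTH26, and GAUT15 rose. The α-expansins EXPA4, EXPA8 and EXPA20, the β-expansin EXPB1 and the expansin-like EXLB1 fell. At least 2-fold were 7 of the higher and 1 of the lower genes, where 6.87% of all probe sets passed both limits (4.42% higher, 2.45% lower). The groups did not overlap for 19 of the 40, beside 39.5% of all probe sets. The median log2 difference of the 40 was 0.04, beside -0.03 over all probe sets, and the median absolute difference was 0.32 beside 0.21.

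In amp1-13 7 of the 40 genes were higher and 9 were lower than in wild type, both with DMSO. Over all probe sets 22.5% passed the threshold, 10.1% higher and 12.5% lower. The higher genes were EXLA1, XTH16, XTH18, CSLC04, CSLC6, CSLC12 and GAUT15. The lower genes were EXPA4, EXPA8, EXPA16, EXPA20, EXLB1, XTH20, XTH33, IRX15-L and PME61. Both limits of adjusted p and 2-fold were passed by 2 higher and 3 lower genes, beside 4.32% of all probe sets (2.92% higher, 1.4% lower). The groups did not overlap for 19 of the 40, beside 35.3% of all probe sets. The median log2 difference was 0.01, beside -0.03 over all probe sets, and the median absolute difference was 0.45 beside 0.19. Both comparisons rest on the same 3 wild-type DMSO arrays, so their values are given side by side and their likeness was not tested.

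Set directly against amp1-13, hyperphyllin-treated wild type had 2 of the 40 genes higher, PME61 and XTH18, and 0 lower in limma. Over all probe sets 6.33% passed this test, 2.98% higher and 3.35% lower, and both genes also passed 2-fold, which 2.31% did (1.17% higher, 1.14% lower). Groups did not overlap for 10 of the 40 genes, beside 26.9% of all probe sets. An unadjusted limma p under 0.05 was reached by 12 of the 40 genes, beside 4310 of the 22746 probe sets. By the moderated F test over the 3 groups 19 of the 40 genes differed, where 30.2% of all probe sets did.

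**Figure D1:**
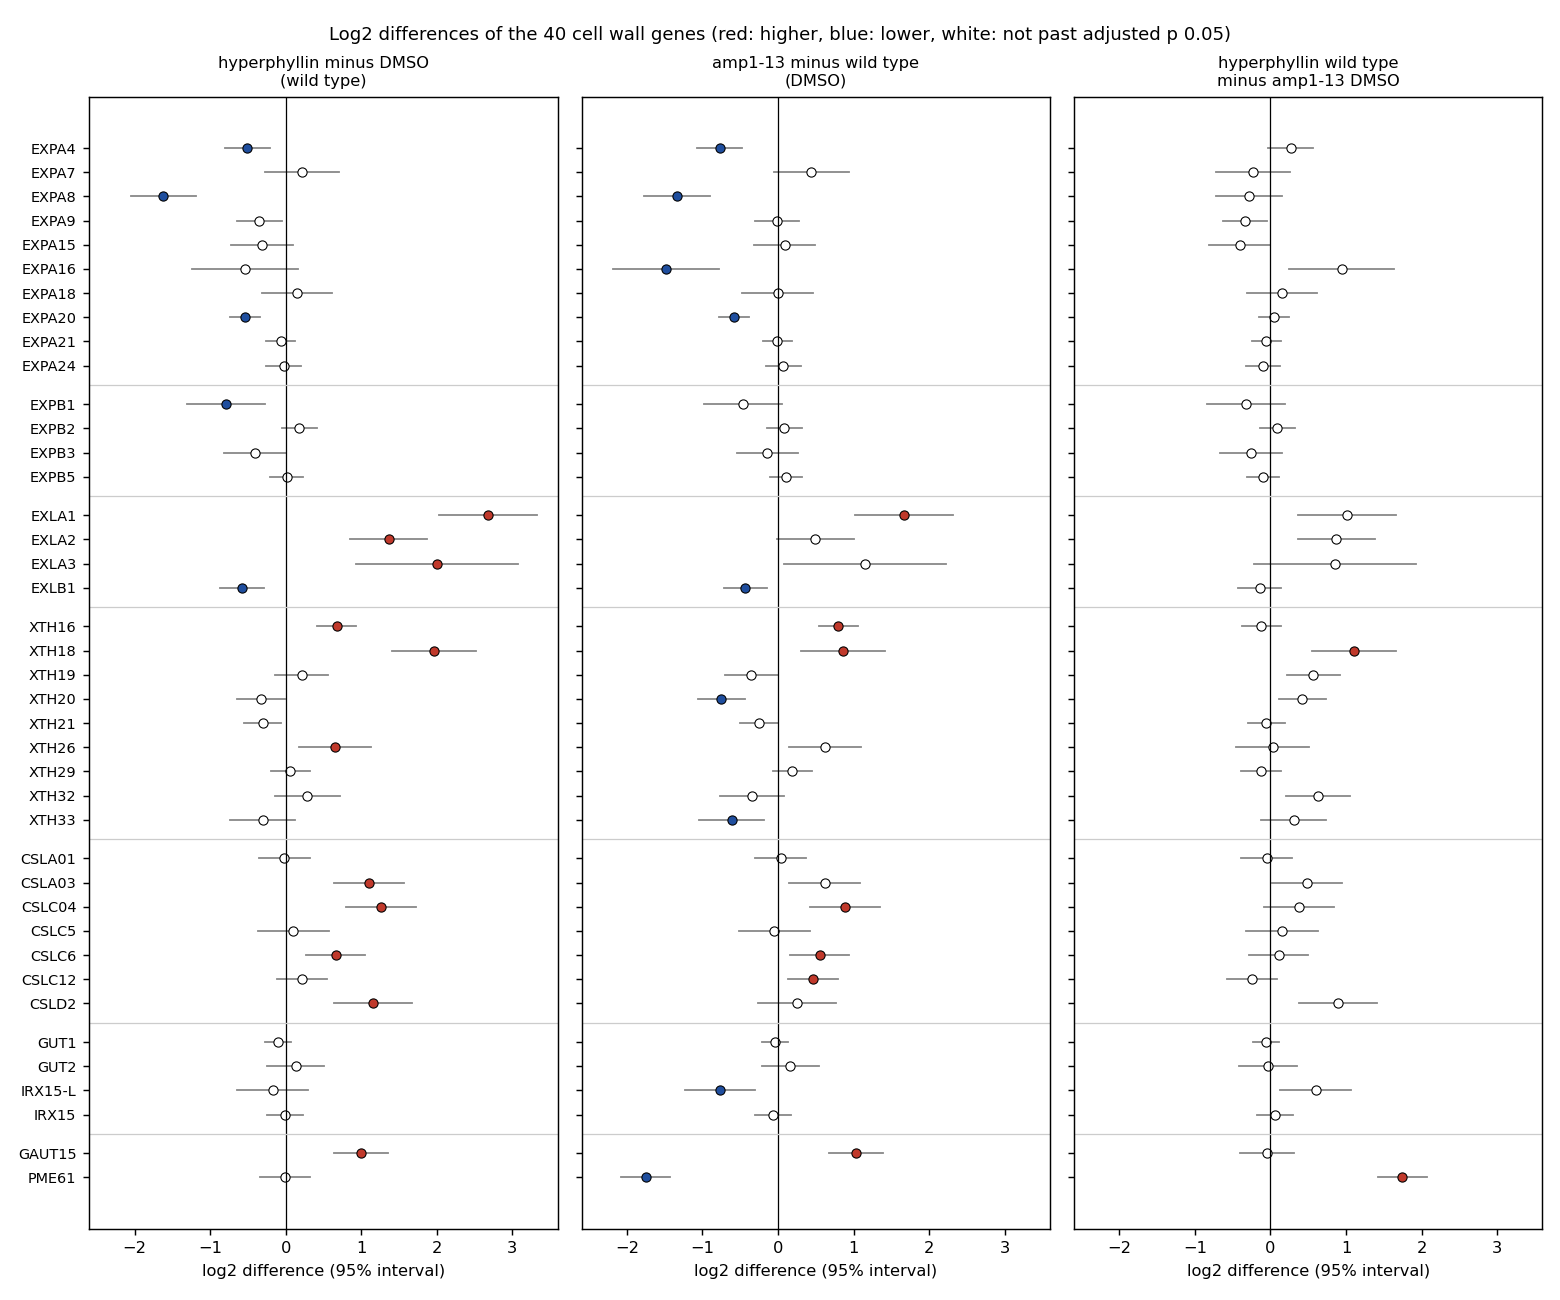
Log2 difference (horizontal axis) of each of the 40 genes (rows, by family) in the 3 comparisons, with its 95% interval. Filled points passed an adjusted p of 0.05 (red higher, blue lower). EXLA1 with hyperphyllin (2.68) is the largest rise among the 40 genes and PME61 in amp1-13 (-1.75) the largest fall.

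The α-expansins are the largest family among the members. None of the 10 was higher in either comparison, 3 were lower with hyperphyllin and 4 were lower in amp1-13. Over all probe sets 13.3% were higher and 15.6% lower with hyperphyllin, and 10.1% and 12.5% in amp1-13. EXPA8 read log2 signals of 8.94, 9.45 and 9.31 in wild-type DMSO replicates 1, 2 and 3. With hyperphyllin it read 7.16, 7.80 and 7.89, and in amp1-13 7.88, 7.96 and 7.86. Every value of both groups lay below the lowest control value. EXPA8 was 3.07-fold lower with hyperphyllin (log2 difference -1.62 ± 0.19, adjusted p = 0.000543) and 2.52-fold lower in amp1-13 (-1.33 ± 0.19, adjusted p = 0.0022).

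EXPA16 fell in amp1-13. Its log2 signals were 6.73, 7.51 and 6.56 with DMSO, 5.95, 6.38 and 6.85 with hyperphyllin and 5.00, 5.49 and 5.86 in amp1-13. The hyperphyllin values overlapped the controls and the amp1-13 values lay below all of them. The gene was 2.8-fold lower in amp1-13 (-1.48 ± 0.31, adjusted p = 0.0099), while the difference with hyperphyllin was -0.54 ± 0.31 (adjusted p = 0.233). The direct difference between hyperphyllin and amp1-13 was 0.94 ± 0.31 and missed the threshold (adjusted p = 0.119), though not with array weights (0.024).

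EXPA4 and EXPA20 had smaller falls. EXPA20 read 6.79, 6.59 and 6.83 with DMSO, 6.25, 6.21 and 6.15 with hyperphyllin and 6.18, 6.17 and 6.11 in amp1-13. All 6 values lay below the 3 controls, for a 1.45-fold lower level with hyperphyllin (adjusted p = 0.00247) and a 1.5-fold lower level in amp1-13 (adjusted p = 0.00261). EXPA4 read 9.74, 9.74 and 10.01 with DMSO, 9.29, 9.10 and 9.60 with hyperphyllin and 9.13, 9.05 and 9.0 in amp1-13. It was 1.42-fold lower with hyperphyllin (adjusted p = 0.021) and 1.71-fold lower in amp1-13 (adjusted p = 0.00479). The hyperphyllin call on EXPA4 was lost without wild-type DMSO replicate 3 (adjusted p = 0.0841), hyperphyllin replicate 1 (0.0643) or hyperphyllin replicate 2 (0.0771), and with only the 2 groups in the fit (0.0536).

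The other 6 α-expansins did not pass the threshold in any comparison. EXPA7 and EXPA18, which act in root hairs, had log2 differences of 0.21 ± 0.22 and 0.15 ± 0.21 with hyperphyllin and of 0.44 ± 0.22 and -0.01 ± 0.21 in amp1-13. Their 95% intervals reached from -0.32 to 0.71 with hyperphyllin and from -0.47 to 0.93 in amp1-13, which is the range of differences left by 3 arrays per group. EXPA9 had a difference of -0.35 ± 0.13 with hyperphyllin (adjusted p = 0.0745) and EXPA15 of -0.31 ± 0.18 (adjusted p = 0.233). In amp1-13 these were -0.01 ± 0.13 and 0.09 ± 0.18. EXPA21 and EXPA24, which lie on chromosome 5 with 4 genes between them, had mean signals below 4.39, the 25th percentile of all probe sets, in every group.

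The β-expansins, a related family best known from grass pollen and vegetative walls, showed 1 call, a fall with hyperphyllin. Over all probe sets 15.6% were lower in that comparison. EXPB1 read 5.40, 6.19 and 5.90 with DMSO, 4.82, 4.78 and 5.53 with hyperphyllin and 5.40, 5.40 and 5.31 in amp1-13. Hyperphyllin replicate 3 lay above the lowest control, so the groups overlapped. EXPB1 was 1.73-fold lower with hyperphyllin (-0.79 ± 0.23, adjusted p = 0.0308) and had a difference of -0.46 ± 0.23 in amp1-13 (adjusted p = 0.186). The call was lost without wild-type DMSO replicate 2 (adjusted p = 0.0668) or 3 (0.0977), hyperphyllin replicate 1 (0.102) or 2 (0.111), or amp1-13 replicate 2 (0.0508), and with only the 2 groups (0.0752). EXPB3 had differences of -0.40 ± 0.18 (adjusted p = 0.133) and -0.14 ± 0.18 (adjusted p = 0.635), and EXPB2 and EXPB5 lay between 0.01 and 0.18 in both comparisons. The EXPB3 difference with hyperphyllin passed the threshold without wild-type DMSO replicate 1 (adjusted p = 0.0231) and with array weights (0.0356).

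Expansin-like genes share the domain layout of expansins, but no wall-loosening activity is established for them. All 3 EXLA genes rose with hyperphyllin and EXLB1 fell, so each of the 4 was called, beside 28.9% of all probe sets. EXLA1 read 8.35, 7.96 and 8.31 with DMSO, 11.07, 11.23 and 10.37 with hyperphyllin and 10.51, 9.49 and 9.63 in amp1-13. The groups did not overlap the controls, and amp1-13 replicate 1 lay above the other amp1-13 arrays and within the hyperphyllin range. EXLA1 rose 6.41-fold with hyperphyllin (2.68 ± 0.29, adjusted p = 0.000371) and 3.17-fold in amp1-13 (1.67 ± 0.29, adjusted p = 0.00479). The direct difference of 1.01 ± 0.29 had an adjusted p of 0.0765, which fell to 0.0154 without amp1-13 replicate 1, 0.0333 without hyperphyllin replicate 3 and 0.0102 with array weights.

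EXLA2 read 6.11, 6.68 and 6.41 with DMSO, 8.04, 8.00 and 7.25 with hyperphyllin and 7.15, 6.70 and 6.83 in amp1-13. It rose 2.57-fold with hyperphyllin (1.36 ± 0.23, adjusted p = 0.0026). In amp1-13 all 3 values lay above the controls, the lowest of them narrowly, and the difference of 0.49 ± 0.23 missed the threshold (adjusted p = 0.154). EXLA3, the chromosome 3 neighbour of EXLA1 with no gene between them, read 6.57, 5.51 and 5.51 with DMSO, 7.24, 8.64 and 7.71 with hyperphyllin and 7.97, 6.46 and 6.60 in amp1-13. It rose 4.01-fold with hyperphyllin (2.00 ± 0.48, adjusted p = 0.013), with a call lost without wild-type DMSO replicate 3 (adjusted p = 0.0576) or hyperphyllin replicate 2 (0.0506). Its amp1-13 difference of 1.15 ± 0.48 had an adjusted p of 0.116, and the SD of its signals, 0.61 to 0.83 over the groups, was the widest among the EXL genes. The direct EXLA2 difference between hyperphyllin and amp1-13 was 0.87 ± 0.23 (adjusted p = 0.0555). It passed without wild-type DMSO replicate 2 (0.039) or hyperphyllin replicate 3 (0.0101), and in 4 of the alternative settings (adjusted p 0.00581 to 0.0453).

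EXLB1 went the other way. It read 7.41, 7.11 and 7.61 with DMSO, 6.86, 6.74 and 6.80 with hyperphyllin and 7.08, 6.85 and 6.90 in amp1-13. All 6 values lay below the controls, amp1-13 replicate 1 narrowly. The gene was 1.49-fold lower with hyperphyllin (-0.57 ± 0.13, adjusted p = 0.00991) and 1.35-fold lower in amp1-13 (-0.43 ± 0.13, adjusted p = 0.0396). The amp1-13 call held in 1 of the 9 fits that leave out an array, the fit without wild-type DMSO replicate 2, and the other 8 gave adjusted p of 0.0523 to 0.138. It was also lost with a trended and robust prior (0.0501) and with only the 2 groups (0.084).

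**Figure D2:**
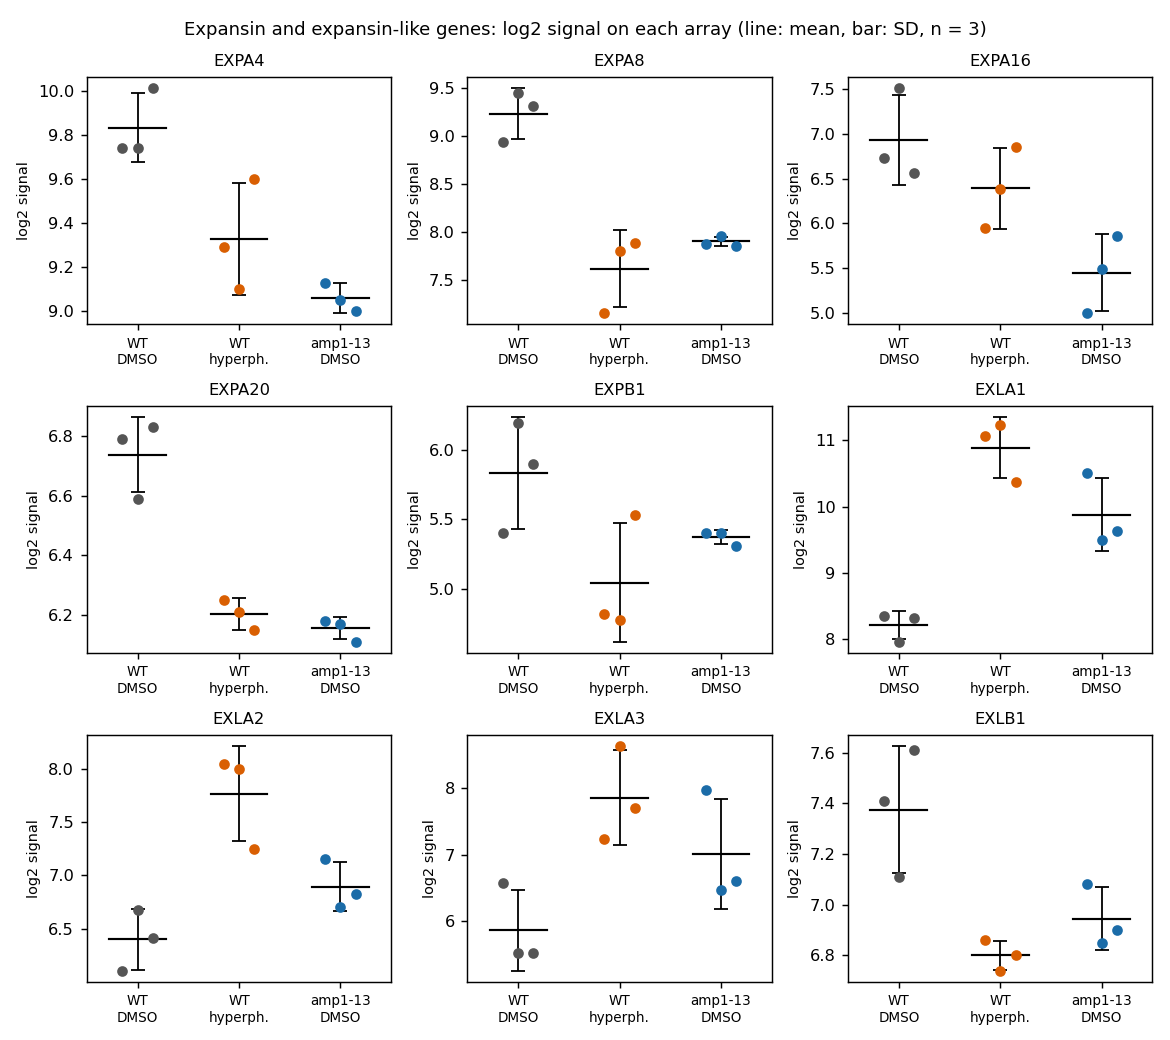
Log2 signal (vertical axis, scaled per panel) of the called expansin and expansin-like genes on each of the 9 arrays, with the mean and SD of each group of 3. EXPA4, EXPA8 and EXPA20 lie lower in both other groups than in wild type with DMSO, and EXLA1 lies higher in both.

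Of the 9 XTH genes 3 were higher and 0 were lower with hyperphyllin, and 2 were higher and 2 were lower in amp1-13. The shares of all probe sets were 13.3% higher and 15.6% lower with hyperphyllin, and 10.1% and 12.5% in amp1-13. XTH18 read 8.93, 8.67 and 8.71 with DMSO, 11.09, 10.80 and 10.31 with hyperphyllin and 10.18, 9.32 and 9.39 in amp1-13. The 3 groups did not overlap, with amp1-13 between the others. XTH18 rose 3.90-fold with hyperphyllin (1.96 ± 0.25, adjusted p = 0.000694) and 1.81-fold in amp1-13 (0.86 ± 0.25, adjusted p = 0.0352), and was 2.15-fold higher with hyperphyllin than in amp1-13 (1.10 ± 0.25, adjusted p = 0.0303). Its amp1-13 call was lost in 5 of 9 fits that leave out an array, those without any wild-type DMSO array, without hyperphyllin replicate 2 or without amp1-13 replicate 1 (adjusted p 0.0547 to 0.112). The direct call was lost without wild-type DMSO replicate 3, hyperphyllin replicate 1 or 2, or amp1-13 replicate 2 or 3 (adjusted p 0.0546 to 0.142), and with only the 2 groups (0.0594).

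XTH19 is the next gene to XTH18 on chromosome 4 and was not called in any comparison. It read 10.06, 10.41 and 10.25 with DMSO, 10.53, 10.5 and 10.33 with hyperphyllin and 10.24, 9.70 and 9.71 in amp1-13. Its differences were 0.21 ± 0.16 with hyperphyllin (adjusted p = 0.356), -0.36 ± 0.16 in amp1-13 (adjusted p = 0.134) and 0.57 ± 0.16 between them (adjusted p = 0.067). Without amp1-13 replicate 1 the amp1-13 difference was -0.53 (adjusted p = 0.0281) and the direct one was 0.75 (adjusted p = 0.0106). The direct one also passed without wild-type DMSO replicate 2 (0.0473), and both passed with array weights (0.0443 and 0.00998). Neighbouring XTH genes are close copies, and cross-hybridisation between them was not tested.

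XTH16 rose in both comparisons. It read 7.73, 7.60 and 7.60 with DMSO, 8.32, 8.31 and 8.34 with hyperphyllin and 8.18, 8.56 and 8.59 in amp1-13. The rise was 1.60-fold with hyperphyllin (adjusted p = 0.00291) and 1.74-fold in amp1-13 (adjusted p = 0.00217). XTH26, a gene of root hairs, read 6.4, 6.34 and 6.32 with DMSO, 7.14, 7.31 and 6.58 with hyperphyllin and 7.41, 6.84 and 6.70 in amp1-13. Every treated and mutant value lay above the controls. XTH26 rose 1.57-fold with hyperphyllin (adjusted p = 0.0459) and had a difference of 0.62 ± 0.21 in amp1-13 (adjusted p = 0.0633). The amp1-13 difference passed the threshold without hyperphyllin replicate 3 (0.0359), with array weights (0.0307) and with filters at the 25th (0.0493) or 50th percentile of signal (0.0445). The hyperphyllin call was lost without wild-type DMSO replicate 1, 2 or 3, hyperphyllin replicate 1 or 2, or amp1-13 replicate 2 (adjusted p 0.0663 to 0.157), after quantile normalization (0.0583) and after centring (0.058).

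XTH20 and XTH33 were lower in amp1-13. XTH20 read 6.90, 6.57 and 6.90 with DMSO, 6.30, 6.67 and 6.41 with hyperphyllin and 6.24, 5.94 and 5.94 in amp1-13. All amp1-13 values lay below every other array, a 1.68-fold lower level (-0.75 ± 0.14, adjusted p = 0.00647), while hyperphyllin gave -0.33 ± 0.14 (adjusted p = 0.113). Without wild-type DMSO replicate 2 the hyperphyllin difference was -0.44 (adjusted p = 0.0304), and it also passed with array weights (0.0351). The direct XTH20 difference of 0.42 ± 0.14 (adjusted p = 0.121) passed with array weights (0.0169). XTH33 read 6.70, 6.13 and 6.68 with DMSO, 6.18, 6.49 and 5.93 with hyperphyllin and 6.11, 5.81 and 5.75 in amp1-13. It was 1.53-fold lower in amp1-13 (adjusted p = 0.0461), with replicate 1 only just below the lowest control. That call was lost without wild-type DMSO replicate 1 or 3, hyperphyllin replicate 1 or any amp1-13 array (adjusted p 0.0549 to 0.16), and after quantile normalization (0.0508), after centring (0.0508) and with only the 2 groups (0.0585). With hyperphyllin the XTH33 values overlapped the controls and the difference was -0.31 ± 0.19 (adjusted p = 0.274). It passed in 1 of the 9 fits that leave out an array, that without wild-type DMSO replicate 2 (adjusted p = 0.0449).

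XTH21, XTH29 and XTH32 did not pass in any comparison. XTH21 and XTH29 had mean signals below 4.39 in every group. XTH32 read 9.11, 8.5 and 8.85 with DMSO, 9.41, 9.02 and 8.89 with hyperphyllin and 8.61, 8.21 and 8.61 in amp1-13. Its direct difference of 0.63 ± 0.19 between hyperphyllin and amp1-13 had an adjusted p of 0.0903, although no hyperphyllin value overlapped an amp1-13 value.

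Among the 7 cellulose synthase-like genes, 4 rose with hyperphyllin, 3 rose in amp1-13, and none fell in either. Over all probe sets 13.3% rose and 15.6% fell with hyperphyllin, and 10.1% and 12.5% in amp1-13. CSLC04 read 8.49, 9.23 and 8.66 with DMSO, 9.77, 10.27 and 10.14 with hyperphyllin and 9.91, 9.47 and 9.65 in amp1-13. No value overlapped the controls. This xyloglucan synthase gene rose 2.40-fold with hyperphyllin (1.27 ± 0.21, adjusted p = 0.00226) and 1.85-fold in amp1-13 (0.88 ± 0.21, adjusted p = 0.0154). The amp1-13 call was lost without wild-type DMSO replicate 1 (adjusted p = 0.0552) or 3 (0.065) or amp1-13 replicate 1 (0.0581).

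The other CSLC genes, which belong to the same xyloglucan family, had smaller differences with hyperphyllin. CSLC6 read 6.28, 6.95 and 6.27 with DMSO, 7.13, 7.16 and 7.19 with hyperphyllin and 7.25, 6.97 and 6.95 in amp1-13, so that control replicate 2 reached the mutant range. It rose 1.58-fold with hyperphyllin (adjusted p = 0.02) and 1.47-fold in amp1-13 (adjusted p = 0.0475). Without wild-type DMSO replicate 2 these adjusted p fell to 0.000343 and 0.000766. The hyperphyllin call was lost without wild-type DMSO replicate 1 or 3 or any hyperphyllin array (adjusted p 0.0504 to 0.0822). The amp1-13 call was lost without each array other than wild-type DMSO replicate 2 (adjusted p 0.0643 to 0.171), and with only the 2 groups (0.0985).

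CSLC12 read 3.99, 4.37 and 4.02 with DMSO, 4.39, 4.51 and 4.15 with hyperphyllin and 4.80, 4.42 and 4.56 in amp1-13. It rose 1.38-fold in amp1-13 (0.47 ± 0.15, adjusted p = 0.0479), from a control mean below the 25th percentile of signal, so the size of this fold is uncertain. The call was lost without wild-type DMSO replicate 1 or 3, hyperphyllin replicate 1 or 2, or any amp1-13 array (adjusted p 0.0587 to 0.162), and with only the 2 groups (0.0711). CSLC5 had differences of 0.10 ± 0.21 and -0.05 ± 0.21, and no group stood apart from another.

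CSLA03, of the mannan synthase family, read 6.97, 6.92 and 7.12 with DMSO, 8.51, 8.25 and 7.55 with hyperphyllin and 7.76, 7.55 and 7.55 in amp1-13. All 6 values lay above the controls. It rose 2.15-fold with hyperphyllin (1.10 ± 0.21, adjusted p = 0.00461), and its amp1-13 difference of 0.62 ± 0.21 had an adjusted p of 0.0607. That p was 0.0349 without hyperphyllin replicate 1, 0.00775 without hyperphyllin replicate 3 and 0.011 with only the 2 groups, and it also passed with array weights (0.0376) and with filters at the 25th (0.0475) or 50th percentile (0.0429). The direct difference of 0.49 ± 0.21 (adjusted p = 0.241) passed without hyperphyllin replicate 3 (0.00982). The related CSLA01 stayed below the 25th percentile of signal in every group.

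CSLD2, which is needed for root hair growth, read 7.99, 8.77 and 8.34 with DMSO, 9.81, 9.63 and 9.11 with hyperphyllin and 8.88, 8.49 and 8.48 in amp1-13. The hyperphyllin values lay above all 6 others, and the amp1-13 values overlapped the controls. CSLD2 rose 2.22-fold with hyperphyllin (1.15 ± 0.23, adjusted p = 0.00586) and had a difference of 0.26 ± 0.23 in amp1-13 (adjusted p = 0.472). The direct difference of 0.90 ± 0.23 had an adjusted p of 0.0508. It passed without wild-type DMSO replicate 1 (0.0413) or 2 (0.0237) or hyperphyllin replicate 3 (0.0241), and in 5 of the alternative settings (adjusted p 0.0042 to 0.0409).

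None of the 4 xylan genes was called with hyperphyllin, where their differences lay between -0.17 and 0.13, and 1 was called in amp1-13. Over all probe sets 28.9% were called with hyperphyllin and 22.5% in amp1-13. GUT1, a xylan synthase gene, read 8.26, 8.21 and 8.29 with DMSO, 8.17, 8.07 and 8.20 with hyperphyllin and 8.20, 8.23 and 8.20 in amp1-13. Its 95% intervals were -0.27 to 0.07 with hyperphyllin and -0.21 to 0.13 in amp1-13, the narrowest of the family. GUT2 had differences of 0.13 ± 0.17 with hyperphyllin and 0.16 ± 0.17 in amp1-13. IRX15 had an adjusted p of 0.982 with hyperphyllin and a difference of -0.07 ± 0.11 in amp1-13. IRX15-L, which with IRX15 is needed for normal xylan, read 6.77, 7.15 and 7.33 with DMSO, 7.13, 6.95 and 6.65 with hyperphyllin and 6.73, 6.13 and 6.08 in amp1-13. It was 1.70-fold lower in amp1-13 (-0.77 ± 0.21, adjusted p = 0.0279), a call lost without wild-type DMSO replicate 3 (adjusted p = 0.11) or amp1-13 replicate 2 (0.1) or 3 (0.0886). Its direct difference of 0.60 ± 0.21 (adjusted p = 0.142) passed without amp1-13 replicate 1 (0.0408) and with array weights (0.034).

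The largest of the 40 direct differences between compound and mutant was that of PME61. PME61, a pectin methylesterase gene that RefSeq also lists as PME35, read 7.02, 6.92 and 6.80 with DMSO, 6.69, 7.24 and 6.79 with hyperphyllin and 5.14, 5.04 and 5.30 in amp1-13. The hyperphyllin arrays lay on both sides of the controls, and the amp1-13 arrays lay far below every other array. PME61 was 3.37-fold lower in amp1-13 (-1.75 ± 0.15, adjusted p = 0.000309), and with hyperphyllin its difference was -0.01 ± 0.15 (adjusted p = 0.981, 95% interval -0.33 to 0.32). The direct difference was 1.75 ± 0.15, or 3.35-fold (adjusted p = 0.000457), and it passed the threshold in every fit that left out an array, with an adjusted p of at most 0.00405.

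GAUT15 belongs to the galacturonosyltransferase family that builds pectin. It read 6.63, 7.21 and 6.82 with DMSO, 7.76, 8.05 and 7.84 with hyperphyllin and 7.76, 7.89 and 8.13 in amp1-13. All 6 values lay above the controls and the 2 other groups covered nearly the same range. GAUT15 rose 1.99-fold with hyperphyllin (0.99 ± 0.16, adjusted p = 0.00205) and 2.05-fold in amp1-13 (1.04 ± 0.16, adjusted p = 0.00267). The direct difference was -0.04 ± 0.16, with a 95% interval of -0.40 to 0.31.

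**Figure D3:**
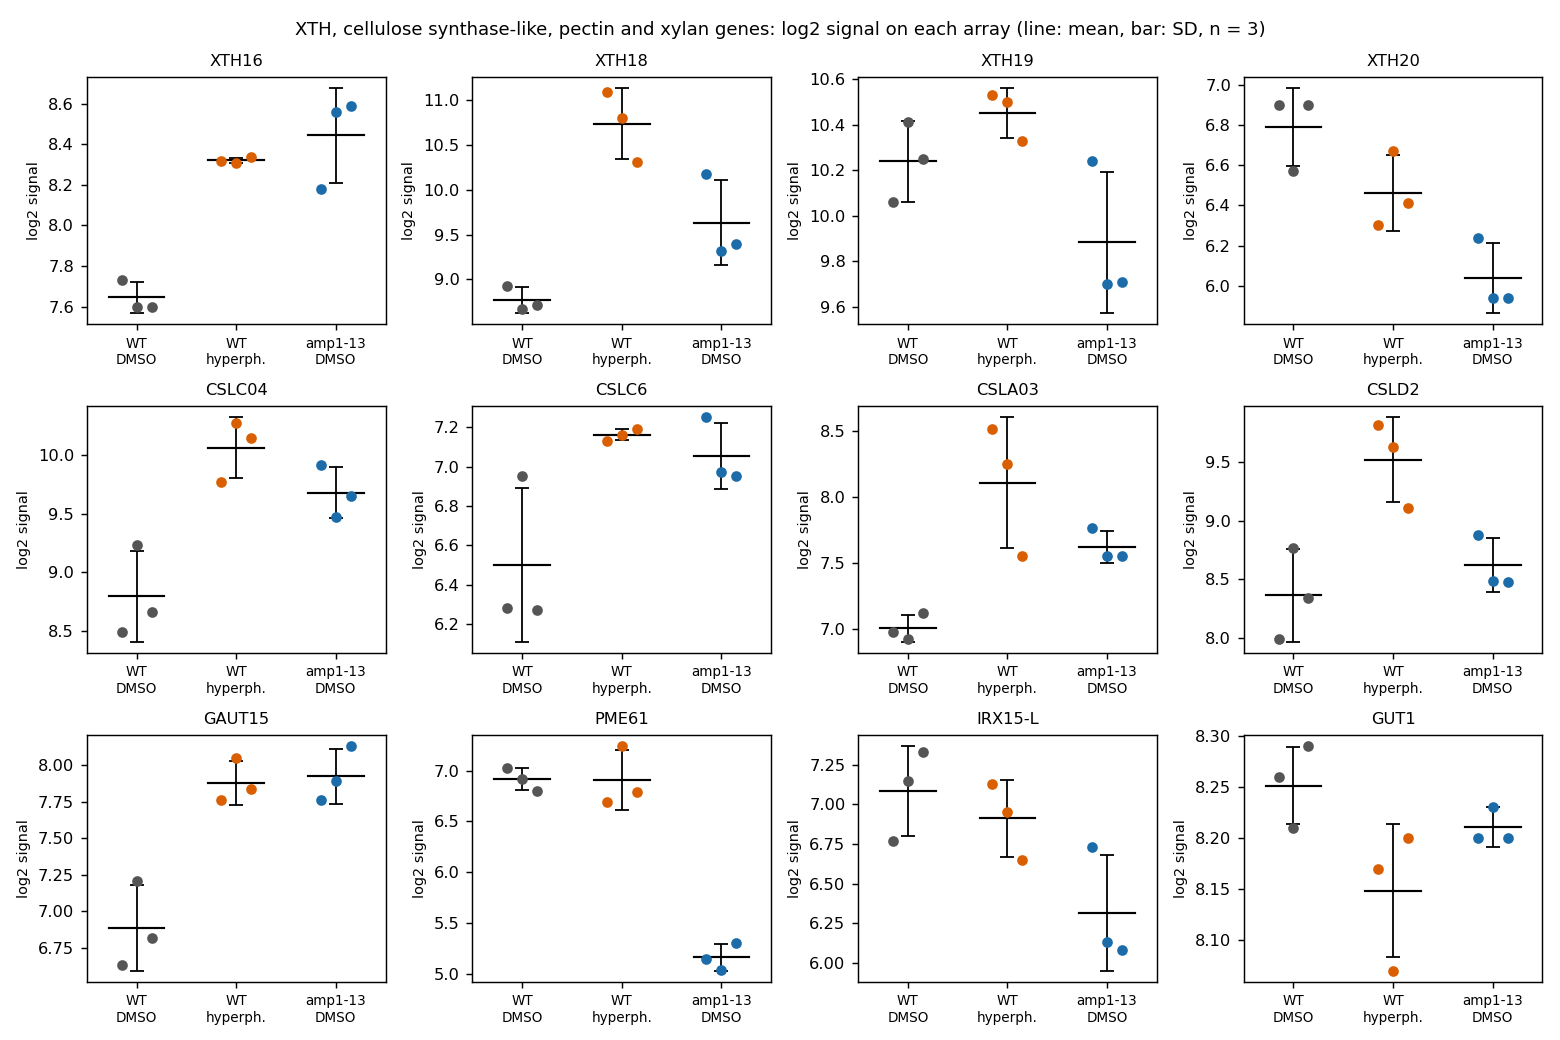
Log2 signal (vertical axis, scaled per panel) of XTH, cellulose synthase-like, pectin and xylan genes on each of the 9 arrays, with the mean and SD of each group of 3. PME61 is lower in amp1-13 than on all 6 other arrays, XTH18 separates the 3 groups, and the GUT1 axis spans a narrow range.

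Compared by family, expansin-like genes had the largest median difference with hyperphyllin, 1.68 over 4 genes, followed by the cellulose synthase-like genes at 0.66 over 7. The α-expansins had a median of -0.33 over 10 genes, XTH genes of 0.21 over 9, β-expansins of -0.20 over 4 and xylan genes of -0.05 over 4. In amp1-13 the medians were 0.82 for expansin-like genes, 0.47 for cellulose synthase-like genes, -0.01 for α-expansins, -0.25 for XTH genes, -0.03 for β-expansins and -0.05 for xylan genes. Array by array the expansin-like median stood 1.35 to 2.19 above the control means with hyperphyllin and 0.45 to 1.43 above them in amp1-13, where replicate 1 gave the highest value. The cellulose synthase-like median was 0.55 to 0.66 and 0.40 to 0.67, and wild-type DMSO replicate 2 itself reached 0.41. The 2 pectin genes had medians of 0.49 with hyperphyllin and -0.36 in amp1-13. All these medians cover only the members and not whole families. Of the probe sets 8730 had no gene name, and some genes carry a family name only as a synonym. The medians summarise members of mixed direction and carry no test.

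**Figure D4:**
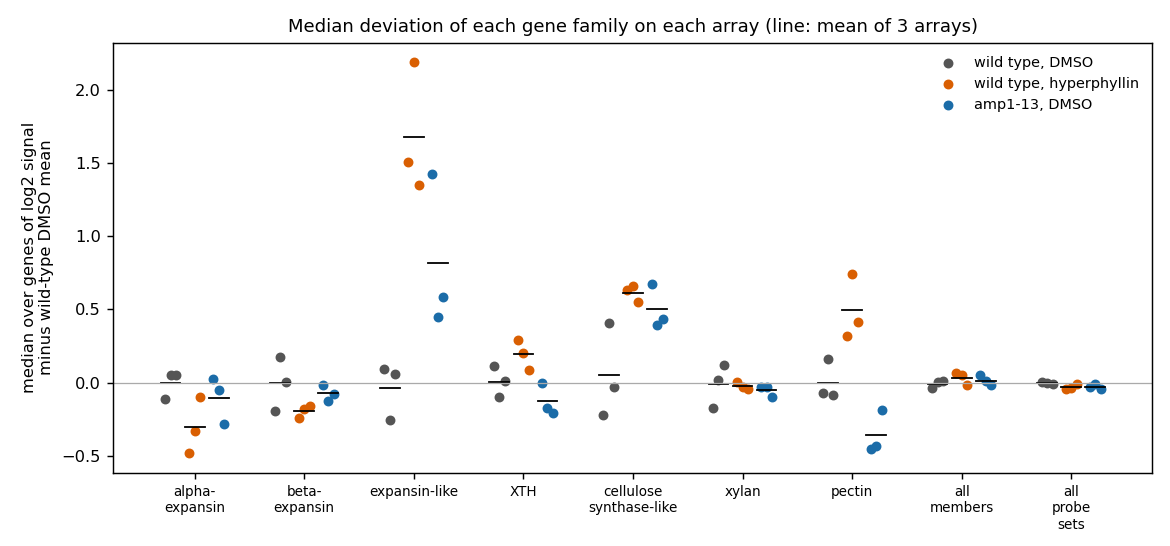
Median over the genes of each family of the log2 signal minus the gene's wild-type DMSO mean (vertical axis), 1 point per array, with a line at the mean of 3 arrays. Expansin-like and cellulose synthase-like genes lie above 0 in both other groups, while the medians of all 40 members and of all probe sets stay between -0.05 and 0.06.

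Other wall genes outside the named families were taken from lists of known functions. On the wall-sensing list 2 of 10 genes were measured, and both were higher in both comparisons. Over all probe sets 13.3% were higher with hyperphyllin and 10.1% in amp1-13. THE1, a receptor kinase that acts when cellulose synthesis is impaired, read 6.92, 7.60 and 7.0 with DMSO, 8.70, 8.77 and 8.5 with hyperphyllin and 8.30, 8.02 and 7.87 in amp1-13. All 6 values lay above the controls. It rose 2.79-fold with hyperphyllin (1.48 ± 0.18, adjusted p = 0.000644) and 1.85-fold in amp1-13 (adjusted p = 0.00956). FER, the related FERONIA receptor kinase, read 9.39, 10.30 and 9.64 with DMSO, 10.99, 11.00 and 10.86 with hyperphyllin and 10.66, 10.5 and 10.34 in amp1-13. These too lay above the controls, though wild-type DMSO replicate 2 came close to the mutant range. It rose 2.25-fold with hyperphyllin (adjusted p = 0.00314) and 1.65-fold in amp1-13 (adjusted p = 0.0323). The FER call in amp1-13 was lost without wild-type DMSO replicate 1 or 3, hyperphyllin replicate 2 or any amp1-13 array (adjusted p 0.0504 to 0.116), and with only the 2 groups (0.0725).

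Of 4 measured genes on the list of 8 partners of cellulose synthesis, 2 were higher with hyperphyllin and 0 in amp1-13. The shares higher over all probe sets were 13.3% and 10.1%. The 2 genes were AT3G57420 (0.41 ± 0.11, adjusted p = 0.0217) and AT1G45688 (0.33 ± 0.10, adjusted p = 0.0383). The first call was lost without wild-type DMSO replicate 1 or 3 or hyperphyllin replicate 3 (adjusted p 0.066 to 0.0736), and with only the 2 groups (0.0503). The second was lost without wild-type DMSO replicate 1 or 3, hyperphyllin replicate 1 or 2, or amp1-13 replicate 3 (adjusted p 0.0558 to 0.133), after quantile normalization (0.0616), after centring (0.0564), with a trended and robust prior (0.0602) and with only the 2 groups (0.0649). Of 3 measured genes on the list of 9 for hydroxyproline modification of wall proteins, AT5G18900 was lower with hyperphyllin (-0.41 ± 0.10, adjusted p = 0.0168) and in amp1-13 (-0.42 ± 0.10, adjusted p = 0.0193). Its hyperphyllin call was lost without hyperphyllin replicate 1 (adjusted p = 0.059) or 2 (0.0567), and its amp1-13 call without wild-type DMSO replicate 3 or amp1-13 replicate 2 or 3 (adjusted p 0.0582 to 0.0633). The shares lower over all probe sets were 15.6% with hyperphyllin and 12.5% in amp1-13. Of 15 listed genes of pectin degradation 3 were measured and none was called (limma). AT1G48100 had differences of -0.57 ± 0.24 with hyperphyllin (adjusted p = 0.108) and -0.67 ± 0.24 in the direct comparison (adjusted p = 0.153). The hyperphyllin difference passed without amp1-13 replicate 3 (0.046), and both passed with array weights (0.00993 and 0.0451). HCT, the 1 measured of 17 lignin genes, was not called.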

How the data were processed

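Per the submitters' processing notes the authors made the deposited log2 signal values with RMA, which corrects background, normalizes between arrays and summarises probes. No source used here names the program that ran RMA or the probe set definition. The deposited table held 22810 probe sets, and 64 control probe sets were left out. The values, 2.77 to 14.3, were used with no further normalization and no filter, so all 40 members were tested. Names came from the platform annotation (13513 probe sets named 1 gene, 503 several, 8730 none), and all 40 members matched a RefSeq TAIR10.1 gene. Of the 16 name prefixes searched, 10 had members.

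Differences were fitted by limma (version 3.58.1, R 4.3.3) on all 9 arrays, each group having its own mean, with default empirical Bayes (6 residual and 3.45 prior degrees of freedom), two-sided tests and Benjamini-Hochberg adjustment over 22746 probe sets. The fit was tested on simulated data. The number of arrays limits the precision, and no batch is given in the labels. The text names members by a rule covering 25 genes: up to 12 rises and 12 falls without overlap in each comparison against wild-type DMSO (6 and 6 in the direct one), and in each family the gene of highest signal and that of largest difference. The other 15 are named to account for every member, and EXGT-A3, ATPMEPCRB, GH9B7, GH9B8, GH9B13 and TBL38 were chosen after their values were seen. Members, lists and the rule were chosen with earlier results of these data known. The GH9 and TBL lists were added after the gene names were seen. The lists for xyloglucan synthesis, nucleotide sugars, secondary wall regulators, root and xylem had no measured gene, and the pollen list had 1 of 8, AT5G45880, which was not called.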

Additional observations from a re-analysis of the deposited data

How the results depend on the processing

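The 7 counts over the 40 genes were recomputed under each alternative. Single differences were checked for the 25 members named by the rule and for the chosen genes outside the 40. Among these no difference past the threshold, as reported or under an alternative, changed sign. Differences near 0 did, such as that of PME61 with hyperphyllin, -0.01 as reported and 0.05 to 0.16 under 4 alternatives. Genes higher with hyperphyllin than in amp1-13, 2 as reported, numbered 4 with a filter at the 25th percentile of signal, 4 with a trended and robust prior and 10 with array weights. Genes lower with hyperphyllin, 5 as reported, numbered 3 with a filter at the 50th percentile, 9 with array weights and 3 with only the 2 groups compared. With the 50th percentile filter 4 were lower in amp1-13 in place of 9. That filter left members of lower mean signal out of the test, among them EXPA16, EXPA20, EXPB1, XTH20, XTH33 and PME61. No gene that was called lower against wild-type DMSO and stayed in the test lost its call under it. With a 2-fold minimum 7 were higher and 1 lower with hyperphyllin, and 2 were higher and 3 lower in amp1-13. Adding genes with a family name among their RefSeq synonyms, chosen after seeing the data, gave 1 gene lower with hyperphyllin than in amp1-13 (EXGT-A3), where 0 of the 40 were, and 3 higher, the third being ATPMEPCRB. Leaving out 1 array at a time gave 8 to 11 genes higher and 3 to 7 lower with hyperphyllin, 3 to 8 higher and 6 to 10 lower in amp1-13, 1 to 6 higher and 0 lower in the direct comparison, and 14 to 21 by the F test. The highest direct count, 6, came without wild-type DMSO replicate 2 and without hyperphyllin replicate 3. The lowest count higher in amp1-13, 3, came without wild-type DMSO replicate 1 or 3 or amp1-13 replicate 1. Same-numbered arrays correlated at -0.20 to 0.23 in their deviations from the group means, and arrays of different number at -0.25 to 0.36. The labels do not say whether equal numbers mark arrays handled together, and these correlations cannot settle it. A replicate block gave 11 higher and 5 lower with hyperphyllin, 6 and 8 in amp1-13, and 3 and 0 in the direct comparison. With the block the amp1-13 calls on CSLC6 (adjusted p = 0.0625), CSLC12 (0.0611) and XTH33 (0.0633) were not made. Nor were the hyperphyllin calls on AT1G45688 (0.0542) and GH9B8 (0.0763) and the direct call on TBL39 (0.054). XTH26 was called in amp1-13 (0.0395), and AT1G48100 was called lower with hyperphyllin (0.0236) and in the direct comparison (0.0374). Signals near background limit 6 members, which lay below the 25th percentile in every group. Apart from the members removed by a filter, the cause of these shifts was not tested.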

Other observations

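Some genes carry a family name only as a RefSeq synonym, so the symbol rule left them out. EXGT-A3, listed also as XTH27, read 10.56, 10.22 and 10.38 with DMSO, 10.47, 10.56 and 10.36 with hyperphyllin and 11.49, 11.40 and 11.44 in amp1-13. Every amp1-13 array lay above all 6 others. EXGT-A3 rose 2.08-fold in amp1-13 (1.06 ± 0.10, adjusted p = 0.000442, limma) and had a difference of 0.08 ± 0.10 with hyperphyllin (adjusted p = 0.636). The direct difference was -0.98 ± 0.10 (adjusted p = 0.00125).

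ATPMEPCRB, listed also as PME41, moved far more. It read 5.96, 5.70 and 5.36 with DMSO, 10.05, 9.75 and 9.49 with hyperphyllin and 8.11, 6.89 and 7.26 in amp1-13. The 3 groups did not overlap, with amp1-13 between the others. ATPMEPCRB rose 17-fold with hyperphyllin (4.09 ± 0.29, adjusted p = 7.95e-05, limma) and 3.35-fold in amp1-13 (1.75 ± 0.29, adjusted p = 0.00394), where PME61 fell. It was 5.07-fold higher with hyperphyllin than in amp1-13 (2.34 ± 0.29, adjusted p = 0.00246).

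Endoglucanases of family GH9 and TBL genes, whose family includes acetyltransferases of wall polysaccharides, were counted by name. Of 15 GH9 genes 1 was higher and 1 lower with hyperphyllin, and 0 higher and 1 lower in amp1-13, beside 13.3% higher and 15.6% lower of all probe sets with hyperphyllin and 10.1% and 12.5% in amp1-13. The higher gene, GH9B7 (0.43 ± 0.12, adjusted p = 0.0218), was no longer called when the fit left out wild-type DMSO replicate 1 or 3 or hyperphyllin replicate 1 or 2 (adjusted p 0.0568 to 0.0757). GH9B8, the lower gene in both comparisons, read 7.97, 8.32 and 8.14 with DMSO, 7.49, 7.57 and 7.91 with hyperphyllin and 7.17, 6.70 and 6.78 in amp1-13. The 3 groups did not overlap, and amp1-13 was lowest. GH9B8 was 2.4-fold lower in amp1-13 (-1.26 ± 0.16, adjusted p = 0.00117, limma) and 1.4-fold lower with hyperphyllin (-0.48 ± 0.16, adjusted p = 0.0452). The hyperphyllin call was lost in 7 of the 9 fits that leave out an array, all but those without hyperphyllin replicate 3 or amp1-13 replicate 1 (adjusted p 0.0513 to 0.146) and with only the 2 groups (0.0535). GH9B13 had a larger difference with hyperphyllin, -0.61 ± 0.21, and narrowly missed the threshold (adjusted p = 0.0501). It passed after quantile normalization (0.0355), after centring (0.0304) and with array weights (0.0313), but not without wild-type DMSO replicate 2 (0.0827).

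Of 22 TBL genes 3 were higher and 1 lower with hyperphyllin, and 2 higher and 3 lower in amp1-13, to be read against the same shares. TBL38 read 8.97, 8.68 and 9.32 with DMSO, 7.94, 8.30 and 8.11 with hyperphyllin and 8.87, 9.28 and 9.25 in amp1-13. The hyperphyllin arrays lay below all others. TBL38 was 1.83-fold lower with hyperphyllin (-0.88 ± 0.18, adjusted p = 0.00634, limma), and the direct difference from amp1-13 was -1.02 ± 0.18 (adjusted p = 0.0103). The direct call was lost without amp1-13 replicate 2 (adjusted p = 0.0613).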
